A study of Mus musculus with 24 samples.

Results

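Messenger RNA of the proteasome's dedicated assembly chaperones and of its alternative regulators was followed across 6 groups of mouse peritoneal macrophages. The genes were chosen by name, with earlier results of these data known: Pomp, Psmg1, Psmg2, Psmg3, Psmg4, Psme3, Psme4, Psmf1 and Paaf1. Of these 9 symbols, 8 were matched to an Ensembl gene among the 54532 genes of the deposited count table, and Paaf1 is not analysed here. All 8 passed the filter on low counts. Each had at least 66 counts in every library, so none entered only through a group in which it was high. The macrophages were left unpolarized (M0, labelled as the control treatment), treated with LPS and IFN-γ (M1), or treated with IL4 (M2). Each state was sequenced without and with ONX-0914, an inhibitor directed at PSMB8 (LMP7), a catalytic subunit of the immunoproteasome. Each of the 6 groups held 4 libraries of polyA RNA, and each library pooled 50000 cells of 2 to 3 mice. Neither strain, genotype and age nor dose and duration of any treatment is given in the sources used here, and no sample was labelled as carrying an engineered allele. The labels call the replicates independent, so p-values measure the spread between these pooled cultures, not between single mice.

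The proteolytic core of the proteasome, the 20S particle, is a stack of rings that does not form unaided. The chaperone pairs PSMG1 with PSMG2 and PSMG3 with PSMG4 guide assembly of the outer alpha ring, and POMP guides entry of the beta subunits, joins the precursors and is then degraded by the finished particle. POMP is known to favour assembly of immunoproteasomes in cells exposed to interferon-γ. The core is usually capped by the 19S particle, which recognises ubiquitin, but PSME3 (PA28γ, a nuclear ring) and PSME4 (PA200, a large single-chain dome) can open it without ubiquitin, and PSMF1 (PI31) was described as an inhibitor of the core and as an adaptor for its transport. PAAF1 and the proteins encoded by Psmd5, Psmd9 and Psmd10 assist assembly of the base of the 19S particle.

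Libraries held 18230924 to 22882972 counts. 1 of the M1 libraries, replicate 2, differed from its group. Of its counts 0.3% fell on mitochondrial genes, against 1.07% to 1.14% in the other M1 libraries, and 13.1% fell on its 10 most counted genes, against 10.3% to 10.4%. The macrophage label was checked against 8 marker genes, all of which had counts in every group, with summed levels of 12600 to 14700 CPM (counts scaled to a common library size by TMM) in M0. With ONX-0914 this sum was 10600 to 11700 CPM in M0, 9310 to 9770 against 11800 to 14400 in M1, and 10100 to 11300 against 12500 to 13800 in M2. Most of it was Lyz2 (lysozyme), at 10500 CPM in M0 and 8340 with the inhibitor, 8590 and 6190 in M1, and 10100 and 7740 in M2. Of all tested genes 9.54% rose and 11.4% fell with ONX-0914 in M0, 16.6% and 27.7% in M1, and 17.6% and 18.8% in M2. Of the 8 markers, 2 rose and 2 fell in M0, 1 rose and 5 fell in M1, and 1 rose and 4 fell in M2. The sum thus does not stand for all of them. In M0, for example, Itgam was at 104 CPM without and 137 with the inhibitor, and Cd14 at 108 and 130. Markers of mesothelial cells and fibroblasts were present too, with a sum over 8 genes of 643 to 880 CPM in M0. Col1a2 stood at 331, Col1a1 at 168 and Pdgfra at 108 CPM there, whereas Krt19 was at 3.07 and Msln at 0.946. The cultures were thus not macrophages alone by these markers. With the inhibitor 0 of the 8 were called in M0, where 21.0% of all tested genes were. In M1 and in M2 2 of these 8 markers fell, beside 27.7% and 18.8% of all tested genes. Markers of B cells moved with the inhibitor. Of 10 tested B cell markers, 9 fell in M0, 8 in M1 and 9 in M2. The summed level of the 11 listed B cell markers went from 107 to 114 CPM down to 60.9 to 67 CPM in M0, from 77.6 to 90.1 down to 39.4 to 44.5 in M1, and from 114 to 122 down to 60.6 to 67.8 in M2. Most of that sum was Cd22, at 85.6 CPM in M0 and 55.3 with the inhibitor, whereas Cd79a went from 2.46 to 0.434 CPM and Ms4a1 from 1.79 to 0.316. The median log2 change of the 10 tested markers was -1.68 in M0, -2.21 in M1 and -1.95 in M2. The mitochondrial share also differed, at 1.71% to 1.78% in M0 against 1.57% to 1.65% with ONX-0914, and at 1.64% to 1.73% in M2 against 1.5% to 1.59%. In M1 it was 0.962% to 1.01% with the inhibitor, below replicates 1, 3 and 4 and above replicate 2. The part of these shifts in the results below was not tested. In bulk RNA, fewer cells of a type and less RNA per cell cannot be told apart.

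The promoters of 7 of the 8 genes were found in RefSeq (GRCm38.p6, 250 bases before to 50 after the transcription start) and were searched on both strands for 4 motifs tied to the treatments. Each motif was found for 1 of these 7 genes, each time a different one. The 4 windows are shown so that each match can be read in its context. TGACNNNGC is the core of the antioxidant response element bound by NRF1 and NRF2, TTCNNNGAA the STAT site and CCAAT the NF-Y box, and the fourth motif is the interferon-stimulated response element (capitals in the Psmg4 window). The capitals mark the motif, a minus-strand match appears as its reverse complement, and the positions are relative to the start. The windows are Psme4 (chr11:30771758-30771786, plus strand, element at -7, minus-strand match), Psmg4 (chr13:34162969-34162998, plus strand, element at 15), Psmg1 (chr16:95991170-95991210, minus strand, site at -243) and Psme3 (chr11:101316174-101316212, plus strand, box at -14, minus-strand match).
Psme4, antioxidant response element core: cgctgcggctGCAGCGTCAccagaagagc
Psmg4, interferon-stimulated response element: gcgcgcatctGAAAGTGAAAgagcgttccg
Psmg1, STAT site: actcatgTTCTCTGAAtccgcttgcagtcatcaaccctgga
Psme3, NF-Y box: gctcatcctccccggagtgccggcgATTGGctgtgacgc
The background share among 32851 promoters of the same length was 12.4% for TGACNNNGC, 3.44% for the interferon-stimulated response element, 8.3% for TTCNNNGAA and 37.4% for CCAAT. The promoters of Pomp, Psmg3 and Psmf1 held none of these letters in this window. TGACNNNGC was found for 2 of 11 genes of the 20S core with a promoter entry and for 3 of 15 of the 19S particle. These counts are of genes, whereas the background share is of promoters. A match describes the letters only.

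Each comparison of ONX-0914 with no inhibitor asks what the inhibitor changed within a state. Pomp and Psme4 rose in all 3 states. Psmg2 and Psmg4, each a partner in 1 of the chaperone pairs, fell in M1 and in M2. Psmg1, Psmg3, Psme3 and Psmf1 passed the test in no state. A gene was called at an adjusted p under 0.05 by edgeR's quasi-likelihood test with Benjamini-Hochberg adjustment over all 14692 tested genes. In M0, 2 of 8 members rose and 0 fell, where 9.54% of all tested genes rose and 11.4% fell (21.0% in either direction). By the same edgeR test, 3 members were lower at an unadjusted p under 0.05, as were 17.1% of all tested genes, and DESeq2's Wald test called 2 of them lower, as it did 13% of all genes. In M1, 2 rose and 2 fell, 4 of 8 in either direction, beside 16.6%, 27.7% and 44.3% of all genes. In M2, 2 rose and 2 fell, again 4 of 8, beside 17.6%, 18.8% and 36.4%. The share of members called in M1 and M2 was thus near that of all genes. Libraries with and without the inhibitor did not overlap for 3 members in M0, 4 in M1 and 4 in M2, as for 26.9%, 36.0% and 39.2% of all tested genes. The median log2 change over the 8 members was 0.03, 0.06 and 0.00 in M0, M1 and M2, against 0, -0.08 and 0 over all tested genes. The share of members up in all 3 states was 25%, against 5.62% of all tested genes. Down in all 3 were 0 members, against 6.87% of all genes. The members were chosen with earlier results of these data known, so these shares are a description only.

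Pomp (ENSMUSG00000029649, GRCm38 chromosome 5, 147860461 to 147876456, plus strand), the maturation factor of the beta ring, was measured at 95.4, 85.9, 91.9 and 82.5 CPM in the 4 M0 libraries and at 152, 133, 133 and 147 with ONX-0914. In M1 it was at 201, 213, 184 and 191 CPM, and at 245, 247, 236 and 244 with the inhibitor. In M2 it was at 109, 107, 104 and 108 CPM, and at 184, 196, 188 and 186 with the inhibitor. In each state all libraries with ONX-0914 lay above all libraries without it. The mean rose from 88.9 ± 5.8 to 141 ± 9.4 CPM in M0 (SD, n = 4), a log2 change of 0.67 ± 0.055 (SE, adjusted p = 5.24e-10). It rose from 197 ± 12.7 to 243 ± 4.43 CPM in M1, a log2 change of 0.30 ± 0.054 (adjusted p = 4.99e-05), and from 107 ± 2.2 to 189 ± 5.17 CPM in M2, a log2 change of 0.82 ± 0.055 (adjusted p = 2.64e-12). Leaving out any 1 library kept the log2 change between 0.63 and 0.70 in M0, 0.27 and 0.34 in M1, and 0.80 and 0.83 in M2. An opposite-strand pseudogene inside the gene, Gm35648, shares 0 exonic bases with Pomp and had 21 counts over all libraries.

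**Figure D1:**
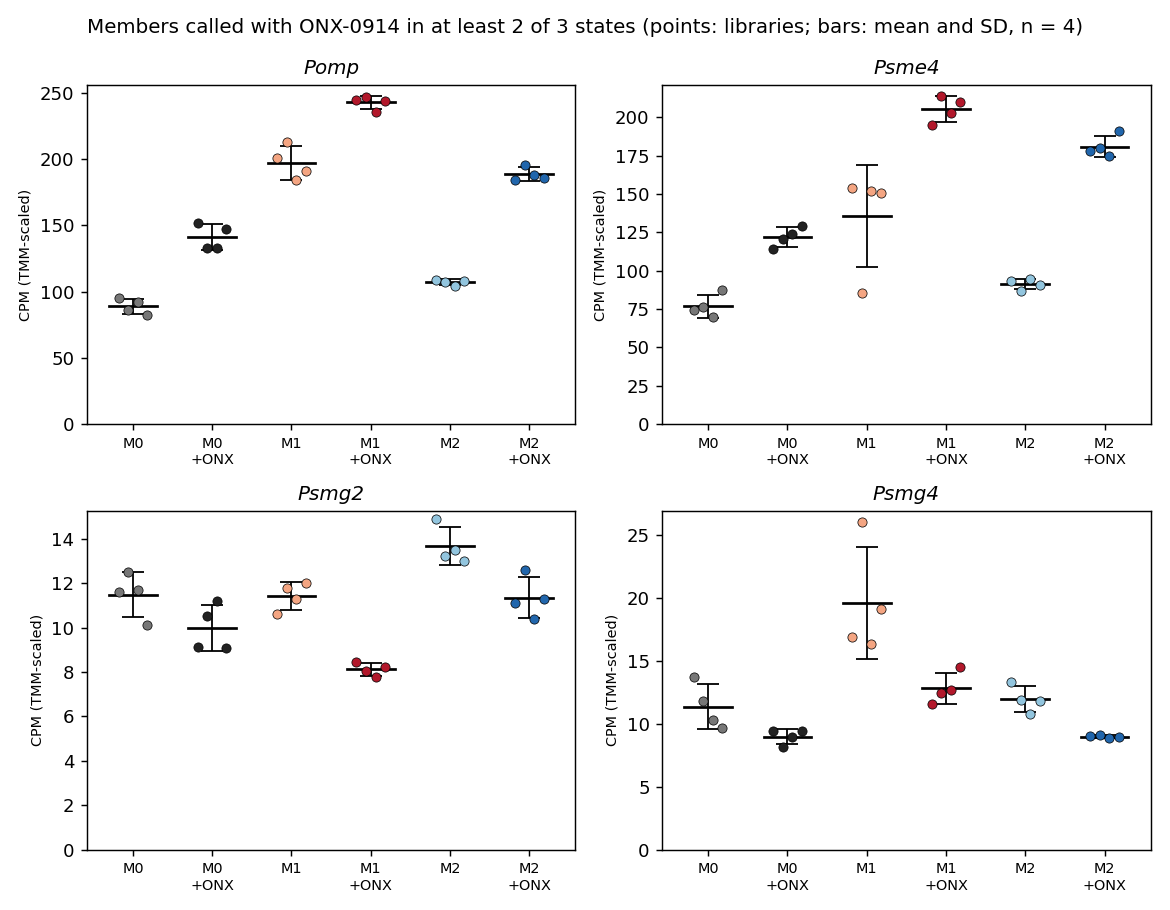
TMM-scaled CPM (vertical axes, linear and starting at 0) of Pomp, Psme4, Psmg2 and Psmg4 in the 6 groups. Points are libraries and bars the mean with SD (n = 4); Pomp and Psme4 sit higher with ONX-0914 in every state, and the single low M1 point of Psme4, at 85.8, is replicate 2.

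Psmg4 (ENSMUSG00000071451, chromosome 13, 34162964 to 34178173, plus strand) moved the other way from Pomp. With ONX-0914 it went from 13.7, 11.8, 10.3 and 9.65 CPM to 9.4, 8.12, 8.95 and 9.44 in M0. It went from 16.9, 26, 16.3 and 19.1 to 11.6, 12.4, 12.7 and 14.5 in M1, where the library at 26 CPM is replicate 2. It went from 13.3, 11.9, 10.8 and 11.8 to 9.02, 9.14, 8.84 and 8.93 in M2. The libraries with the inhibitor lay below those without it in all 3 states, although in M0 the gap was narrow. The log2 change was -0.61 ± 0.121 (SE, adjusted p = 0.000147) in M1, from 19.6 ± 4.45 to 12.8 ± 1.25 CPM, and -0.41 ± 0.124 (adjusted p = 0.0102) in M2, from 12 ± 1.05 to 8.98 ± 0.129 CPM. Without M1 replicate 2 the M1 mean was 17.5 ± 1.48 CPM (n = 3) and the log2 change -0.45 (adjusted p = 0.000502). In M0 it was -0.34 ± 0.124 and missed the threshold (adjusted p = 0.0525). The M0 change was called with DESeq2's Wald test (-0.35, adjusted p = 0.0341), DESeq2 size factors in edgeR (-0.35, 0.0439), no filter on low counts (-0.35, 0.0262) and the compared libraries alone (-0.33, 0.0322). It was also called without M0 replicate 3 (-0.38, 0.0497), M0 replicate 4 (-0.41, 0.025), M1 replicate 1 (-0.34, 0.0472), M1 replicate 2 (-0.34, 0.00882) or M1 replicate 3 (-0.34, 0.0432). Over all fits that left out 1 library, the M0 change ran from -0.41 to -0.24, with adjusted p up to 0.223.

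Psmg2 (ENSMUSG00000024537, chromosome 18, 67641599 to 67654162, plus strand) was at 11.6, 12.5, 11.7 and 10.1 CPM in M0 and at 9.12, 10.5, 11.2 and 9.1 with ONX-0914, and these ranges overlapped. It was at 10.6, 11.8, 11.3 and 12 CPM in M1 and at 8.45, 8.04, 7.77 and 8.24 with the inhibitor. It was at 14.9, 13.2, 13.5 and 13 CPM in M2 and at 11.1, 12.6, 10.4 and 11.3 with the inhibitor. In M1 and M2 the groups did not overlap. The fall was -0.49 ± 0.091 on the log2 scale in M1 (SE, adjusted p = 7.44e-05), from 11.4 ± 0.589 to 8.12 ± 0.292 CPM, and -0.27 ± 0.084 in M2 (adjusted p = 0.0124), from 13.7 ± 0.85 to 11.3 ± 0.909 CPM. The M2 call was lost with no filter on low counts (-0.27, adjusted p = 0.0634) and without M2 replicate 1 (-0.23, adjusted p = 0.0545) or M2 replicate 3 with ONX-0914 (-0.23, adjusted p = 0.0525). In M0 the log2 change was -0.20 ± 0.085 (adjusted p = 0.0959), and it was called without M0 replicate 4 (-0.26, adjusted p = 0.0351) or M0 replicate 3 with ONX-0914 (-0.26, adjusted p = 0.0447). Over all fits that left out 1 library, it ran from -0.26 to -0.16, with adjusted p up to 0.256. The difference between the states did not pass the test for Psmg2 (M1 minus M0 -0.29, adjusted p = 0.112) or for Psmg4 (-0.27, adjusted p = 0.301, and -0.11, adjusted p = 0.627, without M1 replicate 2).

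The partner of Psmg2 in the chaperone pair, Psmg1 (ENSMUSG00000022913, chromosome 16, 95979933 to 95990960, minus strand), was among the lower members, at 5.1 to 11.6 CPM over all libraries. Its mean was 7.22 ± 1.22 CPM in M0 and 7.24 ± 0.579 with ONX-0914, 6.57 ± 0.41 and 6.01 ± 0.615 in M1, and 9.93 ± 1.22 and 9.86 ± 0.506 in M2 (SD, n = 4). The log2 changes were 0.01 in M0 (95% interval -0.23 to 0.24), -0.12 in M1 (-0.38 to 0.13) and -0.01 in M2 (-0.23 to 0.21), and no call was made. Psmg3 (ENSMUSG00000029551, chromosome 5, 139823592 to 139826885, minus strand), the partner of Psmg4, was the least counted member, with as few as 66 counts in a library. It was at 5.26, 4.9, 4.54 and 3.06 CPM in M0 and at 5.3, 4.72, 5.48 and 4.6 with ONX-0914. In M1 it was at 5.67, 6.71, 3.81 and 5.67 CPM against 6.9, 7.14, 6.7 and 7.88, and in M2 at 4.68, 5.15, 5.11 and 4.44 against 4.54, 8.29, 7.85 and 5.51. The ranges overlapped in every state, in M1 by a single library on either side.

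The log2 changes of Psmg3 were 0.19 ± 0.177 in M0 (SE, adjusted p = 0.51), 0.40 ± 0.177 in M1 (adjusted p = 0.0713) and 0.43 ± 0.172 in M2 (adjusted p = 0.0512). The M1 value reached 0.51 (adjusted p = 0.0213) without M1 replicate 2, and was called at 0.40 without M0 replicate 4 (adjusted p = 0.05) or M2 replicate 1 with ONX-0914 (0.0484). It was called too with no filter on low counts (0.42, adjusted p = 0.0325) and with the compared libraries alone (0.49, 0.033). The M2 value reached 0.57 (adjusted p = 0.00932) without M2 replicate 1 with ONX-0914 and 0.50 (0.0364) without replicate 4 of that group, and was called at 0.43 without M0 replicate 4 (0.0345), M1 replicate 2 (0.0291) or M1 replicate 3 (0.0364). It was called as well with no filter (0.43, adjusted p = 0.0239), the filter of 1 CPM in 4 libraries (0.44, 0.0416) and the compared libraries alone (0.44, 0.0318). Other fits weakened both values. Over the fits that left out 1 library, the M1 value ran from 0.25 to 0.51, with adjusted p up to 0.271. The M2 value ran from 0.30 to 0.57, with adjusted p up to 0.217. Psmg3 shares 280 exonic bases with a same-strand gene, Gm26938, whose listed count is 0 in every library, and the assignment of shared reads is not stated. The level of Psmg3 is therefore uncertain.

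Among the activators, Psme4 (ENSMUSG00000040850, chromosome 11, 30771726 to 30880361, plus strand) rose and Psme3 did not pass the test. Psme4 was at 74.1, 76.3, 69.7 and 87.2 CPM in M0 and at 114, 121, 124 and 129 with ONX-0914. It was at 154, 85.8, 152 and 151 CPM in M1 and at 195, 214, 203 and 210 with the inhibitor. It was at 93.5, 86.7, 94.3 and 90.4 CPM in M2 and at 178, 180, 175 and 191 with the inhibitor. The groups did not overlap in any state, and M1 replicate 2 lay far below the other M1 libraries. The log2 change was 0.67 ± 0.11 in M0 (SE, adjusted p = 6.38e-05), from 76.8 ± 7.45 to 122 ± 6.11 CPM, and 0.99 ± 0.11 in M2 (adjusted p = 4.56e-08), from 91.2 ± 3.46 to 181 ± 6.8 CPM. In M1 it was 0.60 ± 0.109 (adjusted p = 6.04e-05), from 136 ± 33.4 to 206 ± 8.62 CPM. Without M1 replicate 2 the M1 mean was 152 ± 1.89 CPM (n = 3) and the log2 change 0.43 (adjusted p = 9.53e-08). A pseudogene on the other strand within the gene, Gm12103, shares 0 exonic bases with Psme4 and had 13 counts in all.

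Psme3 (ENSMUSG00000078652, chromosome 11, 101316213 to 101323537, plus strand) was measured at 68.3, 72.7, 73.4 and 70.2 CPM in M0 and at 71.3, 73.3, 75.7 and 74.3 with ONX-0914. It was at 105, 107, 106 and 105 CPM in M1 against 105, 106, 111 and 105, and at 87.3, 84.2, 81.3 and 84.2 in M2 against 81.3, 85.8, 86.1 and 86.2. Libraries with and without the inhibitor overlapped in each state. The intervals of the log2 change were narrow: 0.05 (95% interval -0.04 to 0.14) in M0, 0.01 (-0.07 to 0.10) in M1 and 0.01 (-0.08 to 0.10) in M2. The changes of Psme4 and Pomp lay above these intervals in each state. Under DESeq2 size factors the M2 value was -0.02.

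Psmf1 (ENSMUSG00000032869, chromosome 2, 151715812 to 151744186, minus strand) was at 30.6, 32.6, 28.3 and 29.2 CPM in M0 and at 25.3, 31, 25.9 and 24.9 with ONX-0914. In M1 it was at 48.2, 52.5, 49.3 and 48.5 CPM against 53.8, 51.5, 56.5 and 52.8, and in M2 at 32.7, 33.3, 30.9 and 35.1 against 32.1, 31.8, 32.7 and 28.4. The M0 group with inhibitor had 3 libraries below all M0 libraries and 1 among them. The log2 changes were -0.17 ± 0.068 in M0 (SE, adjusted p = 0.071), 0.11 ± 0.066 in M1 (adjusted p = 0.17) and -0.08 ± 0.067 in M2 (adjusted p = 0.39). Without the high library, M0 replicate 2 with ONX-0914, the M0 value was -0.25 and called (adjusted p = 0.00705), and it was also called without M1 replicate 2 (-0.17, adjusted p = 0.0386) and by DESeq2's Wald test (-0.18, adjusted p = 0.0484). Over all fits that left out 1 library, the M0 value ran from -0.25 to -0.14, with adjusted p up to 0.219. The M1 value was 0.21 and called with the compared libraries alone (adjusted p = 0.0164). Over the fits that left out 1 library, it ran from 0.09 to 0.14, with adjusted p up to 0.344.

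**Figure D2:**
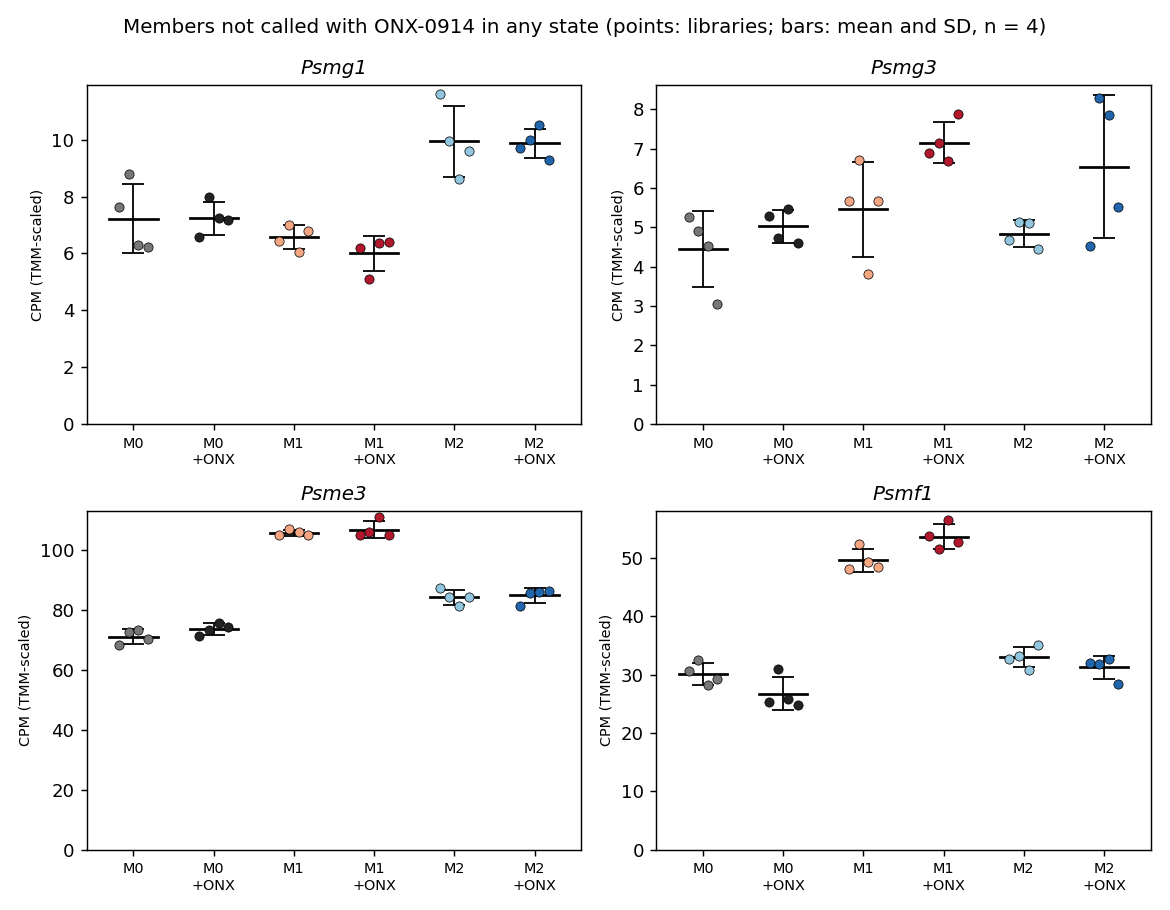
TMM-scaled CPM (vertical axes, linear and starting at 0) of Psmg1, Psmg3, Psme3 and Psmf1 in the 6 groups. Points are libraries and bars the mean with SD (n = 4); with and without ONX-0914 the ranges overlap in every state, while Psme3 and Psmf1 lie higher in M1 than in M0.

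The comparison of M1 with M0 asks what polarization with LPS and IFN-γ did in the absence of the inhibitor. All 3 alternative regulators and 2 of the 5 core chaperones rose, 5 of 8 members, and 0 fell. Of all tested genes 34.6% rose and 34.2% fell (68.8% in either direction), so movement was common in this comparison. The median log2 change was 0.64 over the members and -0.02 over all genes. Pomp rose most, from 88.9 to 197 CPM, a log2 change of 1.15 ± 0.055 (SE, adjusted p = 1.26e-16). Psmg4 rose by 0.78 ± 0.12 (adjusted p = 1.83e-06), and by 0.62 without M1 replicate 2, its highest library. Psme3 rose from 71.2 ± 2.33 to 106 ± 0.985 CPM (log2 change 0.57 ± 0.043, adjusted p = 2.3e-12). Psmf1 rose from 30.2 ± 1.89 to 49.6 ± 2 CPM (0.72 ± 0.067, adjusted p = 2.46e-10). For these 4 genes the M1 and M0 libraries did not overlap, as for 58.1% of all tested genes. Psme4 rose by 0.82 ± 0.111 (adjusted p = 2.3e-07) with ranges that overlapped through M1 replicate 2, and by 0.99 (adjusted p = 9.64e-17) without that library.

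The remaining core chaperones did not pass the test between M1 and M0: Psmg1 was at -0.14 (95% interval -0.38 to 0.11), Psmg2 at -0.01 (-0.19 to 0.17) and Psmg3 at 0.30 (-0.08 to 0.68) on the log2 scale. Psmg3 was called without M1 replicate 3, its lowest M1 library (0.44, adjusted p = 0.0341), and was at 0.19 (adjusted p = 0.374) without M1 replicate 2. Markers of other cells were looked at in this comparison as well. All 4 tested dendritic cell markers rose, with a sum over 6 of 8.62 to 12.6 CPM in M1 against 2.61 to 4.17 in M0. The untested ones did not, with 4 counts of Flt3 over the M0 libraries and 1 over M1, and 4 and 3 of Cd209a. Of 10 tested B cell markers 1 rose and 5 fell, and of 8 mesothelial and fibroblast markers 1 rose and 4 fell. Of all tested genes 34.6% rose and 34.2% fell (68.8% in either direction), so neither list was called more often than all genes. The sum of T and NK cell markers was 18.2 to 24 CPM against 2.6 to 3.38, nearly all of it Lck (19.2 against 2.24 CPM), while Ncr1 had 0 counts and Cd3d 3 counts over the M1 libraries. The part of these markers in the changes of the members was not tested.

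The comparison of M2 with M0 asks the same of IL4. Here 4 of 8 members rose and 0 fell, beside 18.7% and 17.5% of all tested genes (36.2% in either direction), with a median log2 change of 0.25 against 0.01. Psmg1 rose from 7.22 to 9.93 CPM (0.46 ± 0.109, SE, adjusted p = 0.00129), with ranges that overlapped. Psmg2 rose from 11.5 ± 1.01 to 13.7 CPM (0.25 ± 0.083, adjusted p = 0.0188), a call lost with no filter on low counts (0.24, adjusted p = 0.109) and without M0 replicate 4 (0.19, adjusted p = 0.089) or M2 replicate 1 (0.21, adjusted p = 0.078). Pomp rose by 0.27 ± 0.055 (adjusted p = 0.000337) and Psme3 by 0.24 ± 0.042 (adjusted p = 4.07e-05). For Pomp, Psmg2 and Psme3 the groups did not overlap, as for 37.9% of all genes. The other 4 members missed the threshold: Psme4 at 0.25 ± 0.111 (adjusted p = 0.0828), Psmf1 at 0.13, Psmg3 at 0.13 and Psmg4 at 0.07. Psme4 was called without M1 replicate 2 (0.25, adjusted p = 0.000262) and without M0 replicate 4 (0.32, adjusted p = 0.0426), and also with no filter on low counts (0.24, adjusted p = 0.016) and with the compared libraries alone (0.24, adjusted p = 0.00311). Over all fits that left out 1 library, it ran from 0.20 to 0.32, with adjusted p up to 0.21. M1 and M2 are both set against the same M0 libraries.

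**Figure D3:**
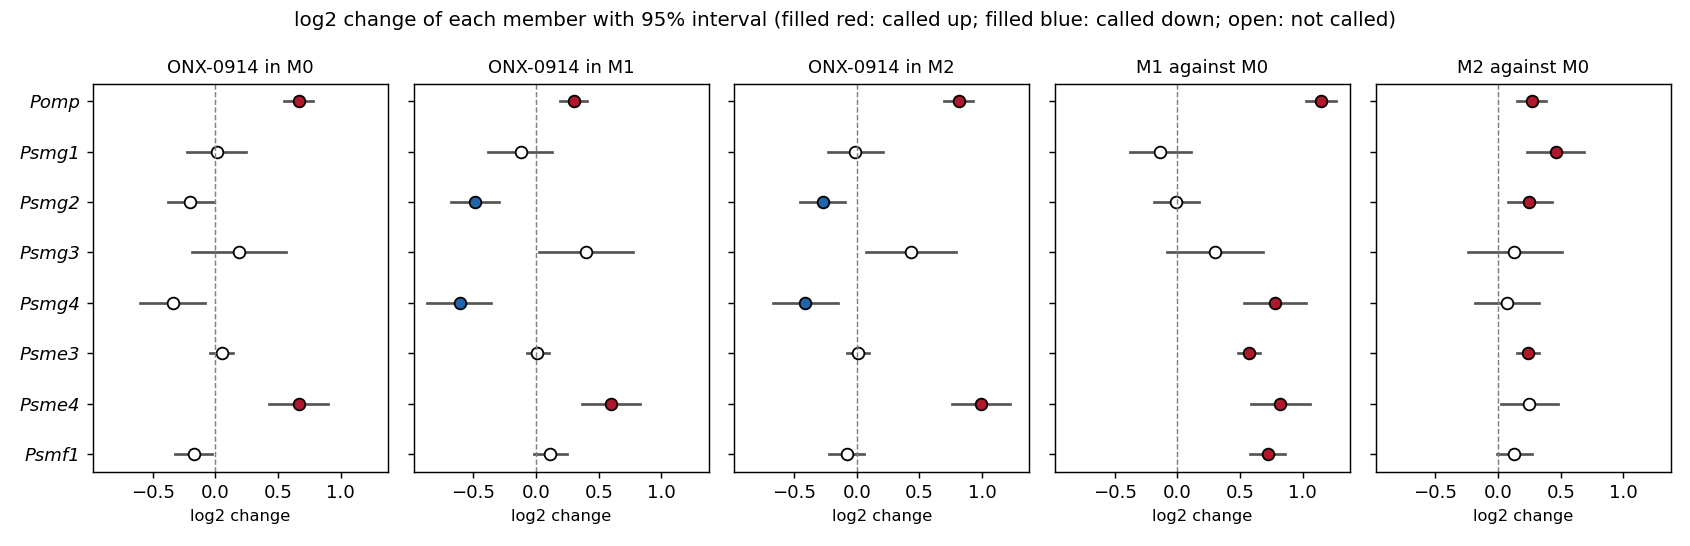
log2 change (horizontal axes) of each of the 8 members in the 5 pairwise comparisons, with 95% intervals derived from the edgeR test statistic. Filled points passed the adjusted threshold; Pomp is filled and above 0 in all 5, and Psme3 lies near 0 in the 3 inhibitor comparisons and above 0 in M1 and M2 against M0.

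Differences between states in the effect of ONX-0914 were tested as interaction terms, and the 3 differences share libraries. The effect on Pomp was smaller in M1 than in M0 by 0.37 ± 0.077 on the log2 scale (difference -0.37, SE 0.077, adjusted p = 0.000954) and smaller than in M2 (difference -0.52, SE 0.077, adjusted p = 2.41e-05). M1 already held 197 CPM of Pomp without the inhibitor, more than M0 with it (141 CPM). Without M1 replicate 2 the differences were -0.33 (adjusted p = 0.000491) and -0.48 (adjusted p = 3.56e-06). The only other member called was Psmf1, with a more positive effect in M1 than in M0 (0.29 ± 0.094, adjusted p = 0.0328), although neither effect was called on its own. That call was lost with no filter on low counts (0.31, adjusted p = 0.0553) and without any of 10 single libraries, at 0.25 to 0.29 and adjusted p = 0.0513 to 0.081: replicates 1 and 2 of M0, 1, 3 and 4 of M0 with ONX-0914, 1, 3 and 4 of M1, and 1 and 3 of M1 with ONX-0914. Thus 1 member was called higher and 1 lower between M1 and M0, where 6.90% and 12.4% of all genes were (19.3% in either direction). Between M1 and M2 1 member was called lower and 0 higher, beside 9.68% and 3.80% (13.5% in either direction). With the compared libraries alone Psmf1 was called higher in M1 than in M2 as well (0.30, adjusted p = 0.0243).

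Psme4 depended on M1 replicate 2 in these tests. With all libraries its differences were -0.07 ± 0.155 for M1 minus M0 (SE, adjusted p = 0.81), -0.39 ± 0.154 for M1 minus M2 (adjusted p = 0.0979) and 0.32 ± 0.155 for M2 minus M0 (adjusted p = 0.27). Without M1 replicate 2 all 3 were called, at -0.23 (adjusted p = 0.0216), -0.56 (adjusted p = 1.46e-06) and 0.32 (adjusted p = 0.00268). With all libraries, M1 minus M2 was called with no filter on low counts (-0.38, adjusted p = 0.0117) and M2 minus M0 with the compared libraries alone (0.30, adjusted p = 0.0102). Leaving out that library raised the calls over all genes too, from 6.17% to 11.2% in M2 minus M0. With all libraries, edgeR called 0 of 8 members in M2 minus M0, beside 6.17% of all genes (3.44% higher and 2.74% lower), with 1 member at an unadjusted p under 0.05 (17.9% of all genes), and DESeq2's Wald test also called 0 (7.94% of all genes).

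**Figure D4:**
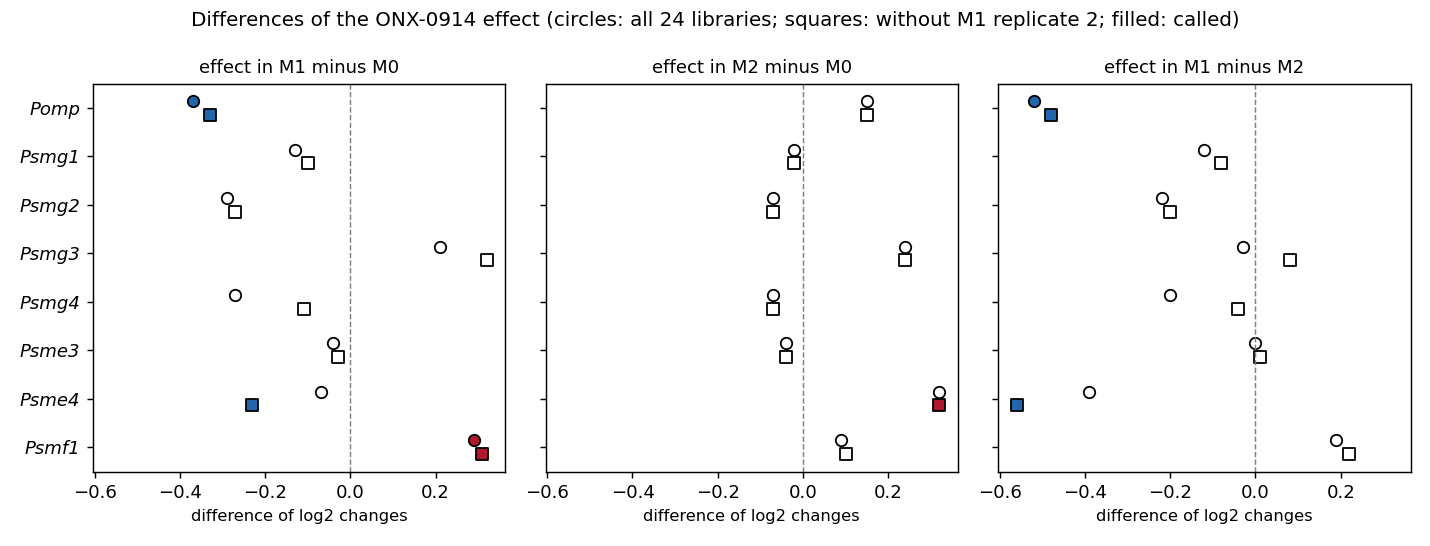
Difference between states in the log2 change with ONX-0914 (horizontal axes) for the 8 members. Circles use all 24 libraries and squares leave out M1 replicate 2, filled where called; Pomp is filled in both fits for M1 minus M0 and M1 minus M2, and Psme4 is filled only for the squares.

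Set beside the particle that they build or cap, the members were mixed where the subunits moved together. All 14 genes of the 20S core rose with ONX-0914 in each state, with median log2 changes of 0.82, 0.89 and 1.21 in M0, M1 and M2. Of 18 genes of the 19S particle 17 rose in each state, Psmd8 being the exception, with medians of 0.97, 1.24 and 1.36; without M1 replicate 2 all 18 rose in M1 and in M2. The change of Pomp lay below the 20S median in each state. The immunoproteasome subunits and the PA28 genes Psme1 and Psme2, relatives of Psme3, showed 3, 5 and 3 of 5 falling and none rising, with medians of -0.32, -0.47 and -0.25 in M0, M1 and M2; without M1 replicate 2 the count was 5 of 5 in M0, 5 in M1 and 3 in M2. In M1 Psme1 fell from 475 to 387 CPM (adjusted p = 0.000553) and Psme2 from 567 to 460 CPM (adjusted p = 0.0343), where Psme3 stood at 106 and 107 CPM. In M1 minus M0 the core genes went both ways, with 3 of 14 called higher and 2 lower. The lower ones, as Pomp, were Psma5 (-0.67, adjusted p = 3.07e-06) and Psma3 (-0.35, adjusted p = 0.0042). The higher ones were Psmb3 (0.46, adjusted p = 0.000399), Psmb2 (0.41, adjusted p = 0.00177) and Psma1 (0.37, adjusted p = 0.000165). Without M1 replicate 2, 6 were higher and 3 lower, the third lower one being Psma4 (-0.19, adjusted p = 0.0335). Of the 18 genes of the 19S particle 12 were higher and 0 lower, and 14 were higher without that library. In M1 minus M2, 7 of 14 core genes were lower and 0 higher, led by Psma5 (-1.08, adjusted p = 2.65e-09), Psma4 (-0.55, adjusted p = 2.1e-06) and Psma3 (-0.50, adjusted p = 0.000152). In M2 minus M0, 11 of 14 core genes and 15 of 18 genes of the 19S particle were higher and 0 lower. Of all tested genes 3.44% were higher there, and of the members 0 were called. Without M1 replicate 2, 12 core genes and 18 of the 19S particle were higher, beside 6.37% of all genes and 1 member.

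The chaperones of the 19S base were led by Psmd5. It rose from 33 ± 0.879 to 50.9 ± 2.73 CPM in M0 (log2 change 0.62, adjusted p = 4.4e-09), from 39.3 ± 2.12 to 97.9 ± 1.81 in M1 (1.32, adjusted p = 2.93e-16) and from 34.3 ± 3.13 to 76.6 ± 1.54 in M2 (1.16, adjusted p = 3.58e-15). Unlike Pomp, its effect was larger in M1 than in M0 (difference 0.69, adjusted p = 4.4e-07). Psmd9 rose in M1 (30.7 to 35.6 CPM, adjusted p = 0.00772), with log2 changes of -0.13 in M0 and 0.04 in M2 that were not called, and Psmd10 fell in M1 (107 to 88.1 CPM, adjusted p = 0.000476). Psmd10, also known as gankyrin, had the largest rise of the 3 between M0 and M1, from 28.6 to 107 CPM (log2 change 1.90, adjusted p = 4.14e-20).

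Of 17 proteasome-associated factors, 9 rose and 0 fell with ONX-0914 in M0, 11 rose and 2 fell in M1, and 11 rose and 0 fell in M2, with medians of 0.19, 0.60 and 0.56. Ecpas, a scaffold of the 26S proteasome, led in M0 (111 to 183 CPM, log2 change 0.72) and in M2 (126 to 263 CPM, 1.06). Usp14, a deubiquitinase of the 19S particle, led in M1, from 70.4 ± 25.2 to 197 ± 1.04 CPM (2.79-fold, adjusted p = 4.4e-09), and the fold was 2.38 (adjusted p = 3.58e-20) without M1 replicate 2. The next were Zfand2a (135 to 339 CPM, log2 change 1.32), Rad23b (182 to 423 CPM, 1.22) and Txnl1 (99 to 231 CPM, 1.22). Without that library Zfand2a led, at 2.57-fold, with Rad23b at 1.17 and Txnl1 at 1.15 on the log2 scale. Ublcp1, a phosphatase of the proteasome, fell in M1 (-0.35, adjusted p = 0.000897), as did Ubqln4 (-0.26, adjusted p = 0.00335). Fbxo7, the F-box protein that binds PSMF1, rose from M0 to M1 with the largest change of the list, from 15.4 ± 1.47 to 43.7 ± 3.29 CPM (2.84-fold, adjusted p = 2.45e-15). Its log2 change with ONX-0914 in M1 was -0.15 (adjusted p = 0.129).

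**Figure D5:**
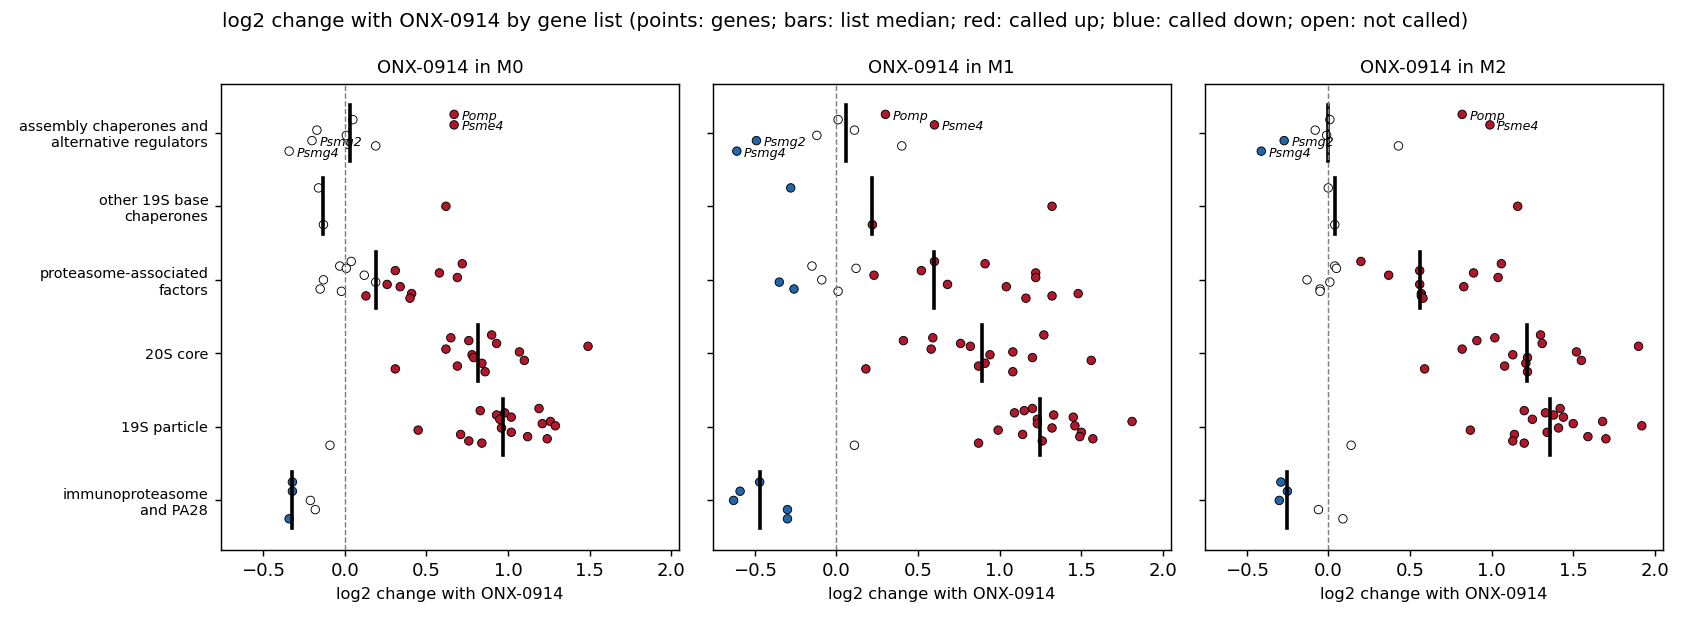
log2 change with ONX-0914 (horizontal axes) of every gene of the 6 lists in M0, M1 and M2. Points are genes, red where called up, blue where called down and open where not called, and bars are list medians; the assembly chaperones and alternative regulators lie on both sides of 0, while the 20S genes lie above 0 in every state.

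Over the 6 group means the order of levels differed from gene to gene. Pomp ran from M0 through M2, M0 with ONX-0914, M2 with ONX-0914 and M1 to M1 with ONX-0914, and the only neighbours that overlapped were M2 with ONX-0914 and M1. Psme4 kept the same ends, with overlap between M0 and M2 and between M0 with ONX-0914 and M1. The latter overlap came from M1 replicate 2 alone, since the other M1 libraries lay at 151 to 154 CPM. Psme3 fell into 3 steps, M0, M2 and M1, with the inhibitor pair of each state overlapping and no overlap between steps. Psmf1 showed 1 step, between M2 and M1. Psmg2 was lowest in M1 with ONX-0914 and highest in M2, and the 4 groups between them overlapped. Psmg4 was highest in M1, clear of M1 with ONX-0914. The mean of Psmg1 was higher in both M2 groups than in the other 4, with overlap between the libraries of M2 and M0. Neighbours of Psmg3 all overlapped.

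The largest distance between group means was 1.45 log2 units for Pomp and 1.42 for Psme4, and the smallest was 0.59 for Psme3. Likeness was measured as the root mean square difference of centred log2 group means over the 6 groups, among 9351 genes with a mean of at least 5 CPM, as a description. The most alike pair of members was Pomp and Psme4, at 0.156, and the least alike was Pomp and Psmg2, at 0.679. Outside the members, Pomp was most like Psma3 (0.065), Ptk2 (0.094) and Mafg (0.131), and Psme4 was most like Psmb5 (0.077), Ptges3 (0.081) and Ecpas (0.096). Psmg4 was most like Scand1 (0.045), Prkcd (0.05) and Ptma (0.051), and Psmg2 was most like Rftn1 (0.028), Snd1 (0.042) and Homer3 (0.044). Psmg1 was closest to Gart (0.029), Psmg3 to Uso1 (0.025), Psme3 to Dcaf13 (0.023) and Psmf1 to Rab5a (0.031).

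Levels of different genes were compared per length in M0. Per kilobase of merged exons, Psme3 stood at 24.1 CPM, Psmg4 at 20.5, Pomp at 17 and Psme4 at 9.16. Psmg2 followed at 6.61, Psmg1 at 5.37, Psmf1 at 4.69 and Psmg3 at 1.54. Psmg4 therefore ranked among the top 3 per kilobase with 11.4 CPM against 88.9 CPM for Pomp, since its exons span 555 bases. The rank of Pomp depended on the length used, since its merged exons span 5216 bases and its transcript with the longest coding sequence 1579. Per kilobase of that transcript Pomp stood first at 56.3 CPM. Psmg3 came last by each length.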

How the data were processed

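PolyA RNA of 24 libraries was sequenced in pairs. The authors deposited raw counts per Ensembl gene, whole numbers without normalization. Per the submitters' processing notes, FastQC 0.11.9, cutadapt 2.8, Bowtie2 2.2.5, Picard and the build mm10 were used; neither the counter nor its strand setting and annotation is given in the sources used here. Symbols and positions came from GENCODE M21 (GRCm38); 123 genes without a symbol held 0.0282% of the counts. In R 4.3.3, edgeR 4.0.16 kept 14692 genes (filterByExpr, 99.927% of counts), scaled libraries by TMM and fitted 1 mean per group (18 residual degrees of freedom, quasi-likelihood). P-values were adjusted by Benjamini-Hochberg over all tested genes, with calls under 0.05 and no minimum fold. The SE is the absolute log2 change over the square root of the F statistic of the edgeR test. The 95% intervals use a t distribution with the 18 residual degrees of freedom, so they need not match the p-values exactly. Levels are TMM-scaled CPM. No 2 libraries were identical. The pipeline was tested on simulated counts.

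The members and lists were chosen with earlier results of these data known. Named genes are all members, up to 3 called genes with the largest change in each list plus any called against its list's majority, and the 3 genes most alike in profile. Psme1 and Psme2, relatives of Psme3, the marker genes and Rad23b were named after their values were seen. Copies were searched with BLAST 2.17.0. Alternatives were DESeq2 1.42.0 size factors, the DESeq2 Wald test, no filter, a filter of 1 CPM in 4 libraries, the compared libraries alone, a replicate block and leaving out each library. A further gene length, and the lists without M1 replicate 2, were added after seeing the data.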

Additional observations from a re-analysis of the deposited data

Results flagged for a closer look

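In 4 of 48 groups of member levels, 1 library lay far from the other 3; chance flags about 1 in 20 groups, or 2.4 here. Psme4 was at 85.8 CPM in M1 replicate 2, against 151 to 154 in the other M1 libraries, in the library whose mitochondrial share was 0.3%. Psmg1 was at 5.1 CPM in M1 replicate 2 with ONX-0914, against 6.2 to 6.4. Psme3 was at 81.3 CPM in M2 replicate 1 with ONX-0914, against 85.8 to 86.2. Psmf1 was at 31 CPM in M0 replicate 2 with ONX-0914, against 24.9 to 25.9.

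The effect of ONX-0914 differed between states by the interaction test in 3 cases. For Pomp the difference of log2 changes was -0.37 for M1 minus M0 (edgeR, adjusted p = 0.000954) and -0.52 for M1 minus M2 (adjusted p = 2.41e-05), and all 4 libraries with the inhibitor were above all 4 without it in each state. For Psmf1 it was 0.29 for M1 minus M0 (adjusted p = 0.0328). The Psmf1 call was lost with no filter on low counts (adjusted p = 0.0553) and in several fits that left out 1 library (up to 0.081). Without M1 replicate 2 the differences of Psme4 were called as well, M1 minus M0 at -0.23, M2 minus M0 at 0.32 and M1 minus M2 at -0.56.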

How the results depend on the processing

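Of 240 recounts of called members under the alternatives, 221 stayed within 1.5 times the count reported and 19 did not. With ONX-0914 in M0 the count went from 2 to 4 by DESeq2's Wald test and ran from 2 to 4 over the fits that left out 1 library. The share of all tested genes called there went from 21.0% to 22.4% by the Wald test, and to 29.1% without M1 replicate 2. For M1 minus M0 the member count went from 2 to 1 with no filter, and from 1 to 3 over left-out libraries. Calls over all genes went from 2834 to 2469, and from 2448 to 3729. For M1 minus M2 the member count went from 1 to 2 with no filter and with the compared libraries alone, and from 1 to 2 over left-out libraries. Calls over all genes went from 1981 to 1748 and to 1532, and from 1635 to 2576. For M2 minus M0 the member count went from 0 to 1 with the compared libraries alone, and from 0 to 1 over left-out libraries. The cause was not tested. Over all genes, the M2 minus M0 count went from 907 to 1590 with the compared libraries alone and to 1672 without M1 replicate 2.

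No value that took the opposite sign under an alternative was called there. The M1 minus M0 difference of Psme4 was called at -0.23 without M1 replicate 2 (adjusted p = 0.0216), with its sign kept. With the compared libraries alone, M1 minus M0 was 0.05 for Psme3 and 0.02 for Psme4, and M1 minus M2 was 0.08 for Psmg3. With DESeq2 size factors and with its Wald test, ONX-0914 in M2 was -0.02 and -0.02 for Psme3, in M0 0 and 0 for Psmg1 (0 with no filter too), and M1 minus M2 was 0.01 and 0 for Psmg3. With the 1 CPM filter, M1 minus M2 was -0.01 for Psme3, ONX-0914 in M2 was 0 for Psmg1 and M1 against M0 was 0.01 for Psmg2. Over left-out libraries, Psme3 ran from -0.01 to 0.02 (ONX-0914 in M1), -0.01 to 0.03 (in M2) and -0.02 to 0.02 (M1 minus M2); Psmg1 from -0.06 to 0.11 (in M0), -0.07 to 0.07 (in M2) and -0.12 to 0.07 (M2 minus M0). Psmg2 ran from -0.07 to 0.03 (M1 against M0), Psmg3 from -0.02 to 0.23 (M2 against M0) and -0.18 to 0.10 (M1 minus M2), Psmg4 from -0.17 to 0 (M2 minus M0) and Psme4 from -0.23 to 0 (M1 minus M0).

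The labels do not tie a replicate number to shared mice. Same-numbered libraries did not deviate together (mean r 0.0106 over 60 pairs), so the numbers are not read as pairing. With the replicate block all 64 member changes kept direction and call, with counts of 2, 4 and 4 in M0, M1 and M2, 5 and 4 for M1 and M2 against M0, and 2, 0 and 1 for the differences M1 minus M0, M2 minus M0 and M1 minus M2. Of 14692 tested genes the block called 3131, 6558 and 5390 with ONX-0914 in M0, M1 and M2. It called 10151 and 5364 for M1 and M2 against M0, and 2887, 979 and 2046 for the differences in the same order. DESeq2 size factors moved the share of called genes that were higher in M1 minus M2 from 28.2% to 39.2%. The direction of these calls over all genes also depended on the libraries fitted together. With the compared libraries alone, M1 minus M2 had 885 genes higher and 647 lower, against 559 and 1422 with all libraries. M1 minus M0 had 1305 and 1040, against 1014 and 1820. With as few as 66 counts in a library, Psmg3 was the member least precisely measured.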
